A study of Mus musculus with 4 samples.

Results

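The 10 chemokine receptor genes Ccr9, Ccr7, Ccr4, Ccr6, Ccr8, Ccr10, Cxcr3, Cxcr6, Cx3cr1 and Ccr2 were followed through the stages of thymic invariant natural killer T (iNKT) cells in mice with and without Hivep3. They were taken by symbol from the 31053 genes of the count tables, where each has 1 row. Chemokine receptors are G protein-coupled receptors that steer migrating cells along gradients of secreted chemokines. In the thymus, CCR9 and CCR7 are known for guiding developing thymocytes to the cortex and the medulla, and CCR4 also binds chemokines made in the medulla. CXCR3, CXCR6, CCR6, CCR8, CCR10, CCR2 and CX3CR1 are best known from effector, memory and natural killer cells, which they draw to inflamed or barrier tissues.

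Single-cell RNA-seq libraries from 4 mice were compared, 2 wildtype C57BL/6 mice and 2 mice labelled Hivep3 KO (Hivep3-/-), backcrossed to C57BL/6. HIVEP3 is a zinc finger protein that acts as a transcription factor and an adapter. All mice were untreated and 8 to 9 weeks old, and each library came from 1 mouse, so p-values measure the spread between these 4 mice. PBS57-CD1d-tetramer+ thymocytes were sorted with CD44low and CD44high cells in even parts for C57BL/6 and by a similar strategy for Hivep3-/-, so the sort sets part of the share of each stage. Counts are unique molecular identifiers (UMIs), 1 per captured RNA molecule, from 10x 5' libraries, and a level is given in CPM, the UMIs of a gene scaled to a fixed total of UMIs for a class of cells in a library.

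After filtering, 3651 to 7231 cells per library were kept, with 25518692 to 45022744 UMIs. Pairs of libraries shared 18 to 43 cell barcodes, at most 1.01% of the smaller library. Xist stood at 324 CPM in C57BL/6 replicate 1 and under 1 CPM in the other 3 libraries, and summed Y-linked transcripts stood at 0 CPM and at 104 to 161 CPM, respectively. C57BL/6 replicate 1 therefore stood apart in sex-linked transcripts, and values without it are given beside the receptors called. The genotypes were thus not balanced in these transcripts. For this experiment the authors describe the C57BL/6 mice as female, whereas C57BL/6 replicate 2 had Y-linked transcripts at 161 CPM. Hivep3 itself was not lower in the libraries labelled Hivep3-/-: in stage 0-like cells it stood at 253 and 314 CPM in C57BL/6 and at 637 and 321 CPM in Hivep3-/-. No source used here gives the part of the gene that is deleted, so the genotype label cannot be checked by these counts, and each direction below rests on that label.

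Clusters made without any chemokine receptor gene were named from marker genes. The 1234 stage 0-like cells expressed Cd24a, Itm2a and Cldn10, the markers of the first iNKT stage, with Cd8a and Cd8b1 also among their leading genes. Cycling-like cells formed 4 clusters, and iNKT2-like cells (Il6ra, Il17rb), iNKT17-like cells (Il1r1, Il23r) and iNKT1-like cells (Klrd1, Xcl1) followed, the last with a late subset marked by Fcer1g and Ly6c2. Clusters 4, 8, 13 and 14 did not pass the naming rules and stayed unnamed. Among their leading genes, clusters 4, 8 and 14 had more markers of another type than of their best match. Cluster 13 had low depth and no marker of its best match among its leading genes. Markers of double positive thymocytes, the precursors of iNKT cells, summed to 144 to 204 CPM in stage 0-like cells of the 4 libraries and to at most 12.8 CPM in iNKT2-like and iNKT17-like cells.

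The receptors divided among the 5 named classes. Among these, in C57BL/6, Ccr9 was highest in cycling-like cells, ahead of stage 0-like and iNKT2-like cells, which overlapped, Ccr7 and Ccr4 were highest in cycling-like and iNKT2-like cells, Ccr6 was all but confined to iNKT17-like cells, Cxcr6 and Ccr2 peaked in iNKT17-like cells, and Ccr8, Cxcr3 and Cx3cr1 peaked in iNKT1-like cells. These levels describe classes made from the same cells and carry no test. Unnamed clusters outside the 5 classes reached like or higher levels. In cluster 4, led by Gm8369 and Igsf23, Ccr8 stood at 241 and 131 CPM in C57BL/6 and at 324 and 461 CPM in Hivep3-/-, and Cxcr3 at 259 and 282 CPM against 335 and 267 CPM. Cluster 14, led by Klrg1 and S1pr5, held 1 and 7 cells of C57BL/6 and 76 and 14 cells of Hivep3-/-. Cx3cr1 had 81 and 3 UMIs there in Hivep3-/- and 0 and 0 in C57BL/6. No difference between genotypes is read from so few C57BL/6 cells. The class of the highest mean changed with the clustering, the cell filter or a library left out for Ccr10 and for Cx3cr1 in Hivep3-/-, and for none of the other 8 receptors.

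**Figure D1:**
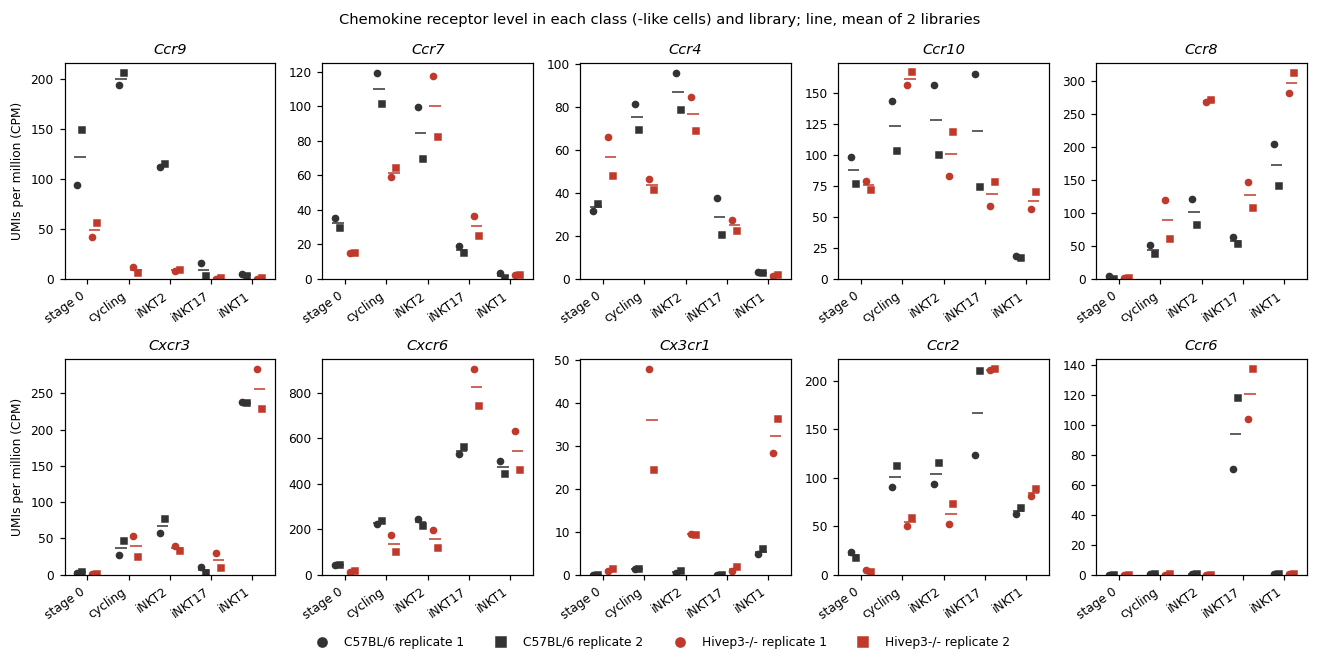
Level of each receptor in CPM (vertical axis, a scale of its own per gene) in 5 classes of cells (horizontal axis), with 1 point per library and a line at the mean of the 2 libraries of a genotype. Ccr9 is near 200 CPM in C57BL/6 cycling-like cells and under 12 CPM in Hivep3-/- cycling-like cells, while Cx3cr1 is under 2 CPM and above 24 CPM, respectively.

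Between genotypes, counts summed per library and class were tested with edgeR over all genes, and a receptor was called at an adjusted p under 0.05. In cycling-like cells 5 of the 9 receptors tested were called, 1 higher and 4 lower in Hivep3-/-, where 3.86% of all genes tested were called. In iNKT2-like cells 2 rose and 1 fell of 9 tested (0.372% of all genes called), in iNKT1-like cells 2 rose of 9 (0.612%), and in stage 0-like cells 2 fell of 6 (0.263%). In iNKT17-like cells 0 of 8 were called (0.105% of all genes), although 5 of the 8 had an unadjusted p under 0.05 in edgeR, and DESeq2 called 0 as well. The late iNKT1-like subset gave 0 of 6 (0.307%), with 2 at an unadjusted p under 0.05 in edgeR and 0 called by DESeq2, and the other iNKT1-like cells gave 2 of 9, both higher (0.611%). Over all kept cells Ccr9 fell and Cx3cr1 rose, 2 of 10 tested (0.765%), values into which the mix of stages enters. Ccr9 stood there at 108 and 83.9 CPM in C57BL/6 and at 5.30 and 6.92 CPM in Hivep3-/- (log2 difference -4.07, adjusted p = 0.00265). Cx3cr1 stood at 2.07 and 2.86 CPM against 29.8 and 29.2 CPM (3.50, adjusted p = 0.00345). Both were called without C57BL/6 replicate 1 as well, at -3.88 and 3.26. The median log2 difference of the receptors was -0.90 in cycling-like cells against 0.03 over all genes, -1.33 against 0.02 in stage 0-like cells, -0.44 against 0.02 in iNKT2-like, 0.41 against 0.00 in iNKT17-like and 0.28 against -0.00 in iNKT1-like cells. The 5 classes come from the same 4 libraries.

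**Figure D2:**
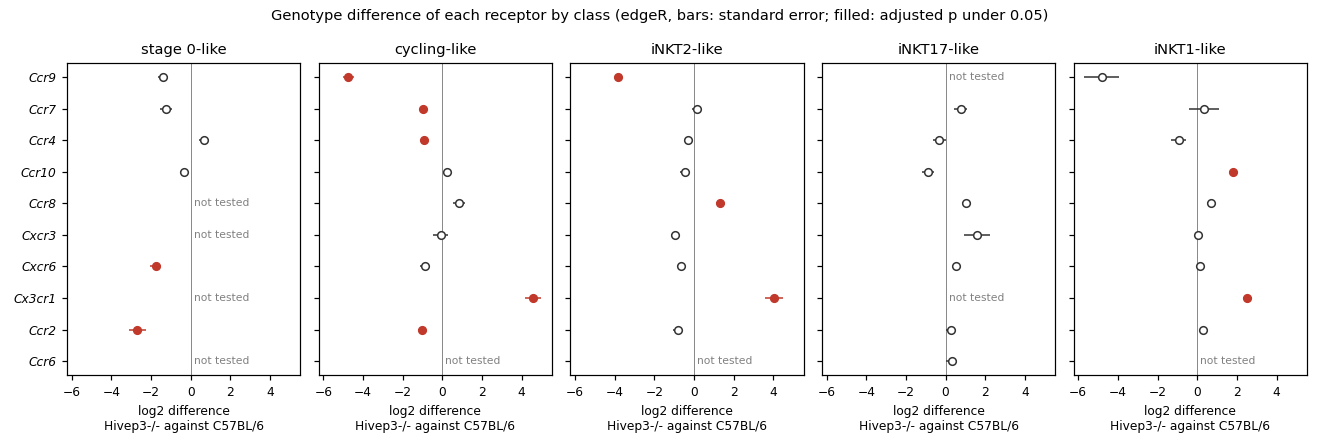
Log2 difference of each receptor between Hivep3-/- and C57BL/6 (horizontal axis, with standard error) in 5 classes of cells, filled where the adjusted p is under 0.05 and marked where a receptor had too few counts to be tested. Ccr9 lies at -4.73 in cycling-like and -3.81 in iNKT2-like cells, and Cx3cr1 at 4.59 and 4.02.

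Ccr9, the receptor for the thymic and intestinal chemokine CCL25, showed the largest fall. In cycling-like cells it stood at 194 and 206 CPM in the C57BL/6 libraries and at 11.7 and 5.68 CPM in the Hivep3-/- libraries. In iNKT2-like cells the values were 112 and 115 CPM against 7.96 and 9.01 CPM. In both classes the C57BL/6 libraries lay close together and far above both Hivep3-/- libraries. The log2 difference was -4.73 (SE 0.28, adjusted p = 0.000662) in cycling-like cells and -3.81 (SE 0.17, adjusted p = 0.000513) in iNKT2-like cells, and without C57BL/6 replicate 1 it was -4.77 and -3.84, called in both.

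The fitted fall of Ccr9 was smaller in stage 0-like cells, which were not tested against cycling-like or iNKT2-like cells. There Ccr9 stood at 93.5 and 149 CPM in C57BL/6 and at 41.3 and 55.7 CPM in Hivep3-/-. The log2 difference of -1.41 (SE 0.26) was not called (adjusted p = 0.0754). It was called under 9 of 14 alternatives, among them without C57BL/6 replicate 1 (-1.76, adjusted p = 0.00791), and adjusted p ranged up to 0.180. At the finer clustering it reached -3.17, but there the class also took in the Tnni1 and Htra3 cells described below. Markers of double positive thymocytes were at a like level in all 4 libraries of that class, as given above. In Hivep3-/- the stage 0-like class held the highest Ccr9 level of the 5 classes, and in C57BL/6 the cycling-like class did. In iNKT17-like cells Ccr9 stood at 15.4 and 2.74 CPM against 0 and 0.887 CPM, too few counts for a test. In iNKT1-like cells it had 52 and 22 UMIs in C57BL/6 and 0 and 4 UMIs in Hivep3-/-, a fitted log2 difference of -4.81 that rests on these few counts (adjusted p = 0.0717). Free RNA in droplets can give UMIs at such a level, and its part in this value was not tested.

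The fall of Ccr9 was seen cluster by cluster. In the S phase cluster 6 it stood at 189 and 206 CPM in C57BL/6 and at 23.1 and 6.20 CPM in Hivep3-/-, in the G2/M cluster 10 at 237 and 265 CPM against 1.81 and 7.25 CPM, and in the histone gene cluster 11 at 160 and 197 CPM against 4.96 and 6.29 CPM. Cluster 8, unnamed and led by Tnni1, Htra3 and Klrb1a, held 200 and 31 cells of C57BL/6 and 283 and 371 cells of Hivep3-/-. Its Ccr9 level was 186 and 245 CPM in C57BL/6 and 2.07 and 2.47 CPM in Hivep3-/-.

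**Figure D3:**
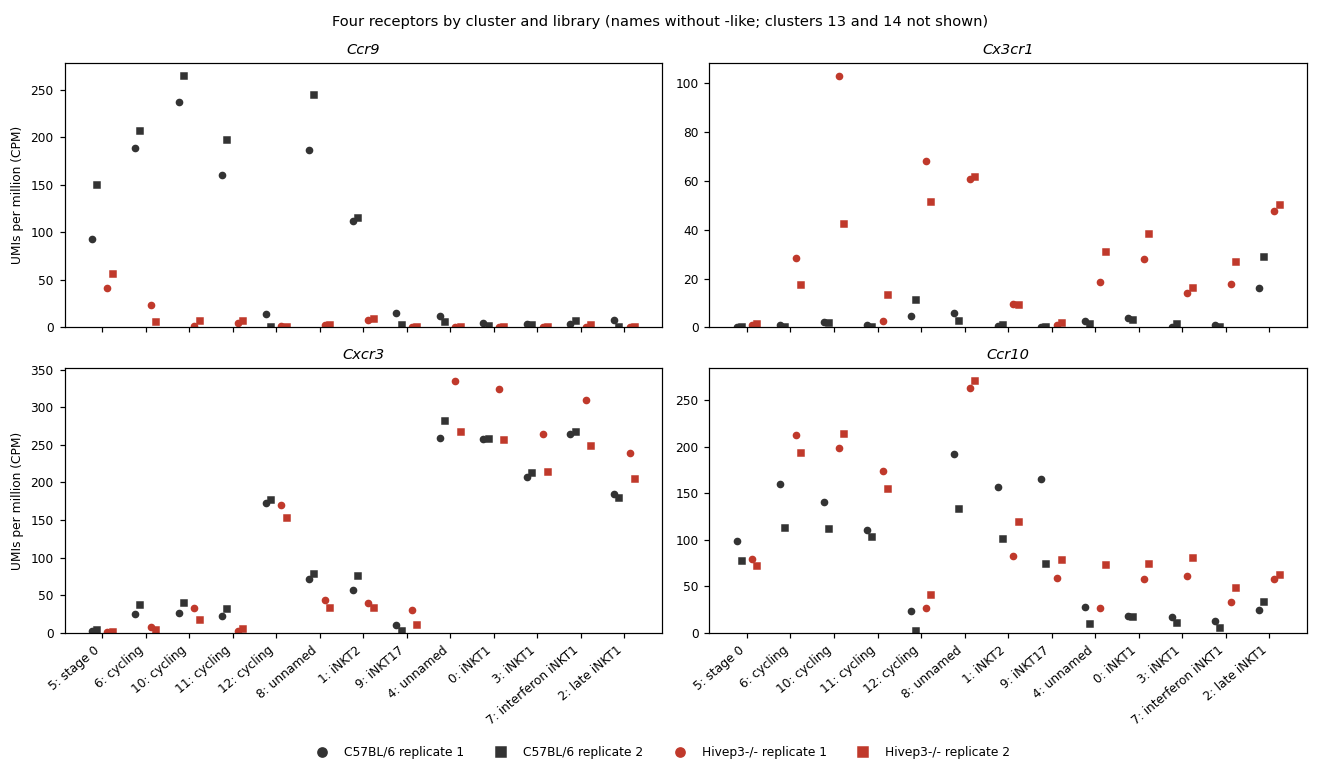
Level of Ccr9, Cx3cr1, Cxcr3 and Ccr10 in CPM (vertical axis, linear) in 13 clusters ordered from stage 0-like to late iNKT1-like, with 1 point per library. Cluster 12, though cycling-like, has Cxcr3 at 153 to 177 CPM and Ccr9 at 0 to 13.9 CPM. Clusters 6, 10 and 11 have Cxcr3 at 40.3 CPM or less, and the iNKT1-like class as a whole has it at 229 to 283 CPM.

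Fewer cells carried the transcript. After each cell was thinned to 2000 UMIs, Ccr9 was found in 28.6% (95% exact interval 26.1 to 31.3) and 26.9% (22.7 to 31.3) of C57BL/6 cycling-like cells, and in 2.59% (1.05 to 5.27) and 1.19% (0.389 to 2.76) of those of Hivep3-/-. The intervals cover counting error only. In iNKT2-like cells the shares were 16.3% and 16.1% against 1.49% and 0.844%. In iNKT1-like cells, the class of lowest Ccr9 level in C57BL/6, the share was 0.909% and 0.369% in C57BL/6 and 0% (0 of 2746 cells, which allows up to 0.109%) and 0.0464% in Hivep3-/-. Free RNA in droplets can also give shares of this size. Its part was not tested, and no expression is read from these shares. Median depth before thinning was 12483.5 to 15678 UMIs in cycling-like and 3413 to 6479 UMIs in iNKT1-like cells, and without thinning 62.5% and 62.1% of C57BL/6 cycling-like cells had a Ccr9 UMI, against 5.84% and 3.33%. With 2 libraries a genotype, the smallest two-sided p of an exact permutation test is 0.333, so the shares carry no call of their own.

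**Figure D4:**
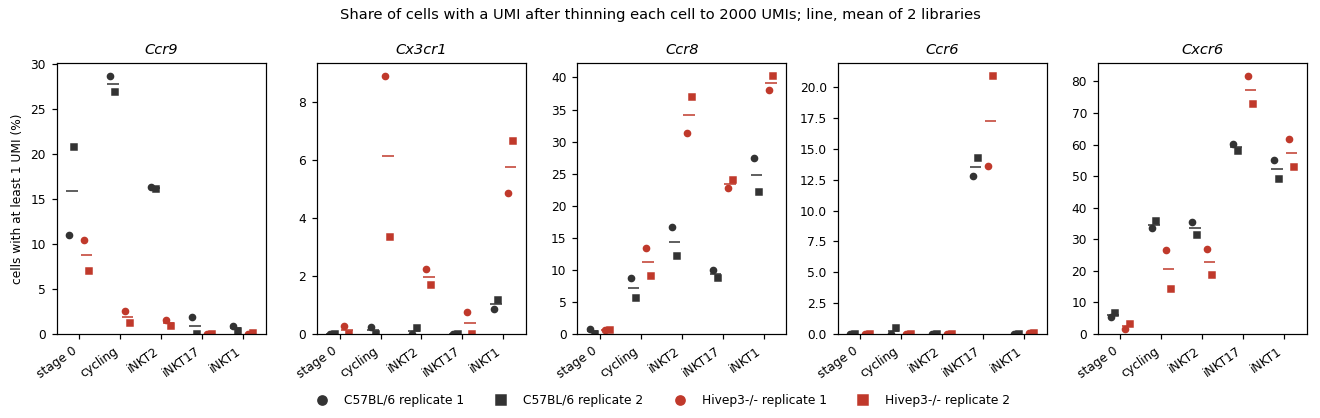
Share of cells with at least 1 UMI of a receptor in percent (vertical axis) after thinning each cell to 2000 UMIs, by class, with 1 point per library and a line at the mean of 2 libraries. Ccr9 is found in over 26% of C57BL/6 cycling-like cells and in under 3% of Hivep3-/- cycling-like cells, and Ccr8 in 31.3% and 36.9% of Hivep3-/- iNKT2-like cells against 16.7% and 12.1% in C57BL/6.

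Ccr9 lies on chromosome 9 (GRCm38, 123678439 to 123784330, plus strand in GENCODE vM21). The 250 bases before its RefSeq start (GRCm38.p6, chr9:123766961-123767210, plus strand) are printed because this gene changed most. Capitals mark matches on either strand to the loose kappa B motif, the sequence family that HIVEP proteins are known to bind.
Ccr9: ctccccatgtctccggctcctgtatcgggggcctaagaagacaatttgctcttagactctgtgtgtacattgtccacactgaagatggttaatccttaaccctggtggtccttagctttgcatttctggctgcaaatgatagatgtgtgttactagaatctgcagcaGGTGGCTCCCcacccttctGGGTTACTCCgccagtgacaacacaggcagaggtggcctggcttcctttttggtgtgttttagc
The loose motif had 2 matches in this window, and 45.8% of all 32851 windows of the same length held at least 1. The strict consensus form had none here and was in 0.140% of all windows. A match is a match of letters and no evidence of binding.

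Lztfl1, which encodes a ciliary trafficking protein, lies inside the GENCODE span of Ccr9 on the opposite strand, at 123694416 to 123717697. That is before the RefSeq start of Ccr9 used for the window above, while distances below are from the GENCODE start. Since it is not stated whether counting used strand, reads of the pair may be shared. In cycling-like cells Lztfl1 stood at 72.2 and 83.9 CPM in C57BL/6 and at 17.6 and 19.5 CPM in Hivep3-/-. The log2 difference was -2.20 there (SE 0.18, adjusted p = 0.00179) and -1.08 in iNKT2-like cells (SE 0.15, adjusted p = 0.0471), and in iNKT1-like cells the difference was -0.03. Over 5 classes and 4 libraries, Lztfl1 was also the gene whose log2 level was most like that of Ccr9 among 6515 genes (Pearson r = 0.915 over 20 points that share libraries), ahead of Rbfa and Mrpl52 (0.905 and 0.904). Among other genes starting within 500 kb of Ccr9, Lars2, Limd1, Sacm1l and Fyco1 were tested in each of the 5 classes and called in none, and Tmem158 was not called in the 4 classes where it was tested. Cxcr6 and Ccr2, 128 and 424 kb from the GENCODE start of Ccr9, are described below.

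**Figure D5:**
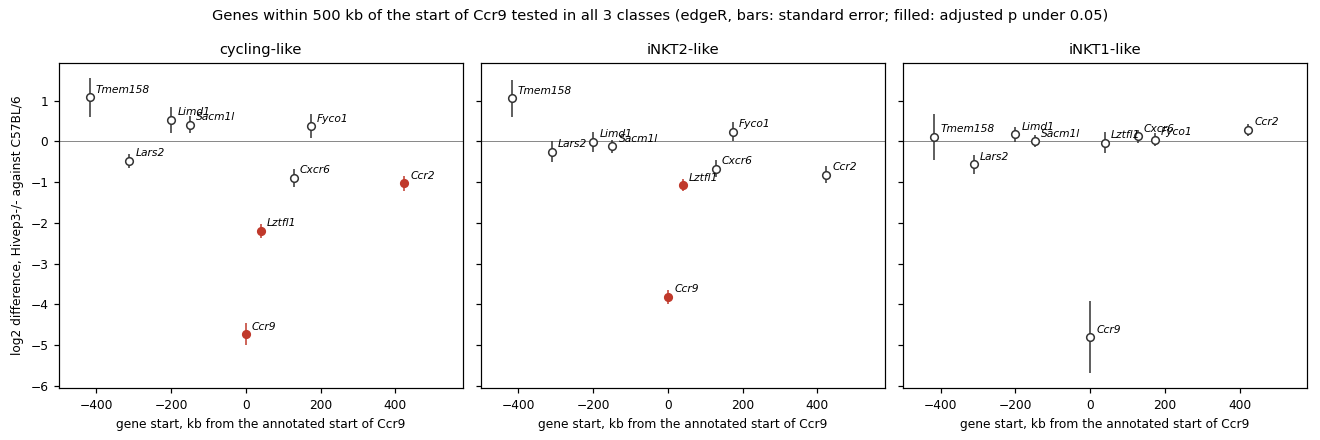
Log2 difference between Hivep3-/- and C57BL/6 (vertical axis, with standard error) of the genes within 500 kb of Ccr9 that were tested in all 3 classes shown, by distance of their start from the annotated start of Ccr9 in kb (horizontal axis). Beside Ccr9, Lztfl1 lies at -2.20 in cycling-like and -1.08 in iNKT2-like cells, and at -0.03 in iNKT1-like cells.

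Ccr7 is the receptor for CCL19 and CCL21 that takes T cells to lymph nodes and thymocytes to the medulla. It was called lower in Hivep3-/- cycling-like cells and not called in iNKT2-like cells, classes that were not tested against each other. In cycling-like cells it stood at 119 and 102 CPM in C57BL/6 and at 59.0 and 64.3 CPM in Hivep3-/-, and the groups did not overlap. The log2 difference was -0.98 (SE 0.15, adjusted p = 0.0181), and without C57BL/6 replicate 1 the difference was -0.87 and no longer called (adjusted p = 0.133), as with no correction between libraries (-0.76, adjusted p = 0.0551). In iNKT2-like cells the libraries overlapped, at 99.9 and 69.5 CPM against 118 and 82.2 CPM. Stage 0-like cells had 35.5 and 29.3 CPM against 15.2 and 15.0 CPM, a log2 difference of -1.25 that was not called (adjusted p = 0.137, and 0.0113 to 0.593 over the alternatives). In iNKT1-like cells Ccr7 was at 3.09 CPM or less in every library.

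Ccr4, which binds the medullary chemokines CCL17 and CCL22, had a profile like that of Ccr7, and of 6515 genes it was the one most like Ccr7 (Pearson r = 0.914 over the 20 points). In cycling-like cells it stood at 81.3 and 69.1 CPM in C57BL/6 and at 46.4 and 41.0 CPM in Hivep3-/-. It fell by 0.93 there (SE 0.16, adjusted p = 0.0237), but the call was lost without C57BL/6 replicate 1 (-0.81, adjusted p = 0.194), without C57BL/6 replicate 2 (-1.04, adjusted p = 0.0562), at the coarser clustering and without cluster 12 (-0.71, adjusted p = 0.071). Among stage 0-like cells the order was the other way, with 31.4 and 34.9 CPM in C57BL/6 and 65.8 and 47.6 CPM in Hivep3-/-, not called (adjusted p = 0.463). In iNKT2-like cells Ccr4 stood at 95.5 and 78.2 CPM against 84.3 and 68.7 CPM, and the libraries overlapped.

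Ccr10, a receptor for the skin and mucosal chemokines CCL27 and CCL28, was low in C57BL/6 iNKT1-like cells and higher there in Hivep3-/-. In iNKT1-like cells it stood at 18.5 and 16.5 CPM in C57BL/6 and at 56.4 and 69.7 CPM in Hivep3-/-, so both Hivep3-/- libraries lay well above both C57BL/6 libraries. This rise was 1.78 in log2 units (SE 0.19, adjusted p = 0.00905). Without C57BL/6 replicate 1 the difference was 1.87 and not called (adjusted p = 0.124), while in the iNKT1-like cells outside the late subset it was 1.97 with both C57BL/6 libraries and 2.16 without replicate 1, called both times. In those cells the call was lost at the coarser and the finer clustering and with no correction between libraries (1.64, 1.75 and 1.91, adjusted p = 0.145, 0.15 and 0.0663). In the late subset Ccr10 stood at 24.6 and 33.4 CPM against 57.8 and 62.1 CPM, not called (adjusted p = 0.199).

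In C57BL/6, Ccr10 was higher in the other classes than in iNKT1-like cells. It was not called between genotypes in any of those classes. In iNKT2-like cells it stood at 157 and 100.3 CPM in C57BL/6 and 82.7 and 119 CPM in Hivep3-/-, and in iNKT17-like cells at 165 and 74.1 CPM against 58.4 and 78.0 CPM. C57BL/6 replicate 1 was the highest library in both classes. In cycling-like cells the values were 144 and 103 CPM against 157 and 167 CPM, and the log2 difference was 0.25 (adjusted p = 0.526). In each of the 3 cycling-like clusters outside cluster 12, both Hivep3-/- libraries also lay above both C57BL/6 libraries. Ccr10 lies within the span of Cntnap1 on the opposite strand, so reads of that pair may be shared as well.

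Ccr8, the receptor for CCL1, was at or under 3.41 CPM in stage 0-like cells of every library and higher in all other classes. In iNKT2-like cells it stood at 121 and 81.7 CPM in C57BL/6 and at 267 and 271 CPM in Hivep3-/-. This rise was 1.32 in log2 units (SE 0.19, adjusted p = 0.0471), and 1.62 without C57BL/6 replicate 1. The call was lost without either Hivep3-/- library and under 3 of the other ways of clustering, with adjusted p up to 0.165. In iNKT1-like cells Ccr8 stood at 205 and 141 CPM against 281 and 311 CPM, in iNKT17-like cells at 63.0 and 52.1 CPM against 146 and 106 CPM, and in cycling-like cells at 51.3 and 37.0 CPM against 119 and 59.8 CPM. In these 3 classes both Hivep3-/- libraries were also above both C57BL/6 libraries, but the receptor was not called (adjusted p = 0.267, 0.168 and 0.200). Within the 3 cycling-like clusters outside cluster 12, Ccr8 had this order in 1 and the reverse in 1, so the cycling-like order did not hold by cluster. Without C57BL/6 replicate 1 it was called in iNKT17-like cells (1.18, adjusted p = 0.0313).

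Cxcr3, the receptor for the interferon-induced chemokines CXCL9 and CXCL10, was highest in iNKT1-like cells, where the genotypes did not separate. It stood there at 238 and 236 CPM in C57BL/6 and at 283 and 229 CPM in Hivep3-/-, a log2 difference of 0.03 (adjusted p = 0.980). In iNKT2-like cells it stood at 57.4 and 76.1 CPM against 39.8 and 32.4 CPM, not called (adjusted p = 0.126) except without C57BL/6 replicate 1 (-1.18, adjusted p = 0.0211). In cycling-like cells the values overlapped, at 27.4 and 45.8 CPM against 53.7 and 23.8 CPM, but the class was mixed. Cluster 12 made up 2.77% and 8.88% of the C57BL/6 cycling-like cells and 28.1% and 13.1% of those of Hivep3-/-. Its Cxcr3 level lay between those of the other cycling-like clusters and that of the iNKT1-like class. Without cluster 12, a choice made after seeing the data, Cxcr3 fell by 1.93 in cycling-like cells (SE 0.33, adjusted p = 0.0206). In clusters 6, 10 and 11 it stood at 22.9 to 40.3 CPM in C57BL/6 and at 2.48 to 32.6 CPM in Hivep3-/-. Cxcr3 lies on the X chromosome, and C57BL/6 replicate 1 differed from the other libraries in sex-linked transcripts.

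Cxcr6, the receptor for membrane-bound CXCL16, had its highest levels in iNKT17-like and iNKT1-like cells and its lowest in stage 0-like cells. It stood at 528 and 560 CPM in C57BL/6 iNKT17-like cells and at 903 and 742 CPM in those of Hivep3-/-, and at 500.3 and 444 CPM against 630 and 458 CPM in iNKT1-like cells. Neither difference was called (adjusted p = 0.488 and 0.909). In stage 0-like cells it stood at 40.9 and 41.9 CPM in C57BL/6 and at 12.2 and 14.1 CPM in Hivep3-/-. The fall was 1.77 in log2 units (SE 0.28, adjusted p = 0.036), a call lost without either C57BL/6 library, with another cell filter and without the highest doublet scores, and it was also lost at the finer clustering, where the class took in the Tnni1 and Htra3 cells and the difference was -0.24. In cycling-like cells Cxcr6 was at 221 and 236 CPM against 172 and 101 CPM, not called (adjusted p = 0.0822), but without cluster 12 it fell by 1.39 (SE 0.19, adjusted p = 0.00902). Cxcr6 lies within the span of Fyco1 on the opposite strand, and Fyco1 stood at 6.43 to 19.3 CPM in all classes and libraries.

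Cx3cr1, the fractalkine receptor of cytotoxic and natural killer cells, showed the largest rise. In iNKT1-like cells it stood at 4.82 and 5.90 CPM in C57BL/6 and at 28.4 and 36.3 CPM in Hivep3-/-. In cycling-like cells the values were 1.30 and 1.37 CPM against 47.9 and 24.3 CPM, and in iNKT2-like cells 0.392 and 0.827 CPM (5 and 4 UMIs) against 9.51 and 9.24 CPM (37 and 41 UMIs). Both Hivep3-/- libraries were several times above both C57BL/6 libraries in each of these classes. The log2 difference was 2.53 in iNKT1-like cells (SE 0.23, adjusted p = 0.0046), 4.59 in cycling-like cells (SE 0.40, adjusted p = 0.00271) and 4.02 in iNKT2-like cells (SE 0.45, adjusted p = 0.0197). Without C57BL/6 replicate 1 it was 2.39 (adjusted p = 0.0979), 4.53 (adjusted p = 0.00286) and 3.36 (adjusted p = 0.0258), so the call in iNKT1-like cells was lost. In iNKT2-like cells the call was lost without either Hivep3-/- library.

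Within iNKT1-like cells, the late subset had the most Cx3cr1 in C57BL/6, at 16.0 and 28.8 CPM against 47.8 and 50.3 CPM in Hivep3-/-, a log2 difference of 1.10 (adjusted p = 0.287). The late subset made up 6.43% and 7.83% of the C57BL/6 libraries and 16.8% and 17.8% of the Hivep3-/- libraries. Outside it Cx3cr1 stood at 2.75 and 2.20 CPM against 21.3 and 29.4 CPM, and it rose by 3.27 (SE 0.29, adjusted p = 0.00584), and by 3.44 without C57BL/6 replicate 1 (adjusted p = 0.00779). In cluster 0 alone, the largest iNKT1-like cluster and chosen after seeing the data, it rose by 3.19 (adjusted p = 0.00993). In cluster 8 it stood at 6.10 and 2.78 CPM against 60.9 and 61.5 CPM. Stage 0-like cells had 0 and 0 UMIs of Cx3cr1 in C57BL/6 and 2 and 3 in Hivep3-/-, and in iNKT17-like cells 0 and 0 against 1 and 2, at or under the limit that a count of 0 allows.

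Few cells carried Cx3cr1 in any library. After thinning, it was found in 0.871% and 1.16% of C57BL/6 iNKT1-like cells and in 4.84% and 6.64% of those of Hivep3-/-, and without thinning in 1.56% and 2.21% against 13.5% and 16.3%. In stage 0-like cells, where it was near 0, the thinned share was 0.282% in Hivep3-/- replicate 1 and 0% in the other 3 libraries, which allows up to 1.18% and 2.83% in C57BL/6 and 0.840% in Hivep3-/- replicate 2. Markers of natural killer cells (Ncr1, Eomes, Klri2, Klrb1f and Tyrobp) were higher as a sum in Hivep3-/- iNKT1-like and cycling-like cells, as Cx3cr1 was. Their summed level was 59.7 and 58.6 CPM in C57BL/6 iNKT1-like cells and 171 and 153 CPM in those of Hivep3-/-, and 2.93 and 5.46 CPM against 82.8 and 26.1 CPM in cycling-like cells, whereas in iNKT2-like cells it was 0.414 to 1.35 CPM in all libraries. Outside the late subset the sum was 49.1 and 43.4 CPM against 89.5 and 76.6 CPM, and Tyrobp, a signalling adapter of natural killer cells, stood there at 15.7 and 11.5 CPM against 17.1 and 14.2 CPM. In the late subset the sum was 117 and 153 CPM against 392.4 and 305 CPM. Tyrobp, among the leading genes of that subset's cluster, gave much of the sum, at 51.0 and 72.1 CPM against 249 and 195 CPM. The part of these markers in the result was not tested. Summed markers of myeloid cells, which also express CX3CR1, stood at 141 and 138 CPM against 153 and 172 CPM in iNKT1-like cells and at 123 and 126 CPM against 133 and 142 CPM in cycling-like cells. Without cells that held 2 or more markers of myeloid cells, B cells or double positive thymocytes, the difference of Cx3cr1 was 2.53 in iNKT1-like and 4.43 in cycling-like cells, called in both.

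Cx3cr1 and Ccr8 are neighbours on chromosome 9, with Cx3cr1 annotated from 119901616 to 120069879 on the minus strand and Ccr8 from 120092114 to 120094906 on the plus strand, and both rose in iNKT2-like cells. The annotated span of Cx3cr1 also holds Gorasp1, Csrnp1 and Xirp1 on the same strand and Ttc21a on the other, so reads may be shared. The 250 bases before the RefSeq start of Cx3cr1 (GRCm38.p6, chr9:120068297-120068546, minus strand) are printed for comparison with those of Ccr9, the receptor that moved the other way, with the same motif in capitals.
Cx3cr1: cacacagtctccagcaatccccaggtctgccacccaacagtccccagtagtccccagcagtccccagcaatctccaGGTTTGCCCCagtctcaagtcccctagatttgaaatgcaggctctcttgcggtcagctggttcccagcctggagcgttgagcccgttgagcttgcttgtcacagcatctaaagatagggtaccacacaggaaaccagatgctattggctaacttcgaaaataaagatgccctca
This window had 1 match to the loose motif and none to the strict one.

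Ccr2, the receptor for CCL2 on monocytes and effector T cells, and Ccr6, the CCL20 receptor of interleukin-17-producing cells, had their highest level of the 5 classes in iNKT17-like cells, as Cxcr6 did. Ccr6 stood there at 70.7 and 118 CPM in C57BL/6 and at 104 and 137 CPM in Hivep3-/-, and at 0.607 CPM or less in each of the other 4 classes. Its log2 difference was 0.30 (SE 0.26, adjusted p = 0.961). After thinning, 12.8% and 14.3% of C57BL/6 and 13.6% and 20.9% of Hivep3-/- iNKT17-like cells had a Ccr6 UMI, against 0% of stage 0-like cells, which allows up to 0.840% to 2.83% by library, and 0% of iNKT2-like cells, which allows up to 0.189% to 0.746%. Of 6515 genes, Lrrc25, Il1r1 and Il23r were most like it (Pearson r = 0.995, 0.993 and 0.993), and the last 2 are among the markers that named the class.

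Ccr2 stood at 124 and 209 CPM in C57BL/6 iNKT17-like cells and at 211 and 212 CPM in those of Hivep3-/-, and C57BL/6 replicate 1 was the low one. In cycling-like cells it stood at 89.9 and 112 CPM against 49.6 and 58.6 CPM. It fell by 1.03 there (SE 0.18, adjusted p = 0.0249), by 1.19 without C57BL/6 replicate 1, and by 1.11 without cluster 12, all called, but the call was lost without C57BL/6 replicate 2 (-0.86, adjusted p = 0.124) and with no correction between libraries (-0.82, adjusted p = 0.0673). In stage 0-like cells the values were 23.2 and 16.7 CPM (34 and 12 UMIs) against 4.22 and 2.57 CPM (10 and 6 UMIs), a fall of 2.70 (SE 0.43, adjusted p = 0.036). That call was lost without C57BL/6 replicate 1 (-2.43, adjusted p = 0.331) and at the finer clustering (-0.49). In iNKT1-like cells the order was the other way and not called, at 63.0 and 68.8 CPM against 80.7 and 87.8 CPM.

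Whether a receptor's genotype difference depended on the stage was tested as an interaction, each class against iNKT1-like cells with the library as a block, so the 4 tests share their reference. Against iNKT1-like cells, stage 0-like cells differed in 5 of 9 receptors (3.01% of all genes called), cycling-like cells in 3 of 9 (5.78%), iNKT2-like cells in 5 of 9 (4.46%) and iNKT17-like cells in 1 of 10 (0.492%). Ccr10 differed in all 4 tests, its Hivep3-/- difference being lower than in iNKT1-like cells by 2.66 (log2) in iNKT17-like, 2.25 in iNKT2-like, 1.54 in cycling-like and 2.12 in stage 0-like cells (adjusted p = 0.00065, 4.33e-07, 0.000464 and 6.13e-09). Ccr2 was lower than in iNKT1-like cells by 3.04, 1.33 and 1.13 in the stage 0-like, the cycling-like and the iNKT2-like class (adjusted p = 2.68e-06, 0.000333 and 0.000106), and Cxcr6 by 1.87, 1.07 and 0.84 in the same order (adjusted p = 2.01e-06, 0.00291 and 0.00018). Each of these calls of Ccr10, Ccr2 and Cxcr6 was also made without C57BL/6 replicate 1. At the finer clustering, where the stage 0-like class took in the Tnni1 and Htra3 cells, that of Cxcr6 in this class was lost (-0.35, adjusted p = 0.249) and that of Ccr2 was -0.76 and still called.

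In iNKT2-like cells the difference of Cxcr3 was also lower than in iNKT1-like cells, by 1.0 (adjusted p = 0.000753), and that of Ccr8 was higher by 0.60 (adjusted p = 0.00147), a call lost without Hivep3-/- replicate 1 (0.52, adjusted p = 0.0569). In stage 0-like cells the difference of Ccr4 was higher by 1.63 (adjusted p = 0.015) and that of Ccr9 by 3.35 (adjusted p = 0.0026), that is, Ccr9 fell less than in iNKT1-like cells, where it rests on 4 UMIs in Hivep3-/-. Both were lost without C57BL/6 replicate 1 (adjusted p = 0.229 and 0.0908), that of Ccr4 also without Hivep3-/- replicate 1 and with the other cell filter (adjusted p = 0.411 and 0.0711), and that of Ccr9 also at the finer clustering (1.5, adjusted p = 0.315). DESeq2 gave no adjusted p for either. The rise of Cx3cr1 was 1.97 larger in cycling-like and 1.44 larger in iNKT2-like than in iNKT1-like cells, and neither was called (adjusted p = 0.0819 and 0.0927). Without cluster 12 the former was 2.03 and called (adjusted p = 0.042).

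The cycling-like class changed in make-up beside these results. Summed markers of iNKT1-like cells stood at 904 and 1122 CPM in C57BL/6 cycling-like cells and at 3520 and 2331 CPM in those of Hivep3-/-, and summed iNKT2-like markers at 1667 and 1562 CPM against 825 and 821 CPM. Without cluster 12 the iNKT1-like markers stood at 819 and 768 CPM against 2016 and 1586 CPM. Ccr9, Cx3cr1, Ccr7 and Ccr2 stayed called there without cluster 12, at -4.53, 4.66, -0.77 and -1.11.

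Within classes, 2 pairs of receptors were found together in a cell at shares near or above the product of their separate shares. Further pairs were counted and are not described here. After thinning, Ccr7 and Ccr9 were found together in 6.32% and 6.78% of C57BL/6 cycling-like cells, where the product of their shares is 5.60% and 5.21%. Cxcr3 and Cxcr6 were found together in 20.4% and 18.8% of C57BL/6 iNKT1-like cells (products 20.5% and 17.9%) and in 25.5% and 20.3% of those of Hivep3-/- (25.3% and 19.6%). These shares are a description at 2000 UMIs per cell, and most molecules of a cell are not seen at that depth.

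Of 14 other chemokine receptors, 0 to 3 had counts enough for a test in a class, and edgeR and DESeq2 called 0 in each class, with 0 to 2 at an unadjusted p under 0.05 in edgeR. With so few tested and 0.105% to 3.86% of all genes called in these classes, nothing is read from that count. Cxcr4, the CXCL12 receptor of precursors, stood at 9.35 and 18.1 CPM in C57BL/6 iNKT1-like cells and at 3.61 and 10.4 CPM in those of Hivep3-/-, and its difference was higher in cycling-like than in iNKT1-like cells by 1.74 (adjusted p = 0.0146) and in iNKT2-like cells by 1.34 (adjusted p = 0.0347). Of 18 ligands of the 10 receptors, at most 4 were tested in a class. Within the 5 classes edgeR called 1 of them, Ccl1, the ligand of CCR8, in iNKT1-like cells (0.612% of all genes called), where DESeq2 called 2. Ccl1 had 1 and 3 UMIs in C57BL/6 iNKT1-like cells against 456 and 373 UMIs in those of Hivep3-/- (0.0964 and 0.316 against 24.6 and 28.7 CPM, adjusted p = 0.00131). In iNKT2-like cells it had 62 UMIs in Hivep3-/- replicate 2 and 0 in the other 3 libraries.

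Of 29 genes that transmit or dampen chemokine receptor signals, 27 to 29 were tested and edgeR called 2, both in cycling-like cells, where 3.86% of all genes were called. That share is near the background, and nothing is read from the count. In the other 4 classes it called 0, with 0 to 3 at an unadjusted p under 0.05, and DESeq2 called 1 in iNKT1-like cells. Prex1, an exchange factor for Rac, stood at 34.6 and 29.1 CPM in C57BL/6 and at 77.8 and 60.7 CPM in Hivep3-/- and rose by 0.96 (SE 0.18, adjusted p = 0.0329). Rgs10, which shortens G protein signals, stood at 251 and 279 CPM against 159 and 182 CPM and fell by 0.78 (SE 0.14, adjusted p = 0.0318). The median log2 difference of the 29 genes in that class was 0.08, against 0.03 over all genes tested.

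For the other receptors the most similar profiles over the 20 points were those of Scd2 for Ccr4 (Pearson r = 0.931), B2m for Ccr8 (0.973), Nsg2 for Ccr10 (0.827), Gm2682 for Cxcr3 (0.979), Acsbg1 for Cxcr6 (0.962) and Lgals3 for Ccr2 (0.959). Cx3cr1 was under the level set for this comparison, 20 CPM as the mean of the 4 libraries in its highest class. The points share libraries and depth, and the values are a description.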

How the data were processed

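The authors aligned the reads to mm10 with Cell Ranger 3.1.0 and deposited raw UMI counts per gene and barcode, 1 matrix per mouse. No source used here states whether counting used strand. From these deposited counts, cells with at least 500 and under 4100 genes, at least 1000 UMIs and under 6% mitochondrial counts were kept, 19647 of 22279 barcodes. Cells were clustered (Seurat 5.3.0, 2000 variable genes, 30 components, resolution 0.8) after 24 chemokine receptor genes were left out of the variable genes, and named from fixed marker lists. Scrublet called 10 cells, too few to have worked, and no doublets were removed. Counts were summed per library and class and tested with edgeR 4.0.16 (quasi-likelihood, filterByExpr, TMM, Benjamini-Hochberg over all genes), with genotype as the only term. Named genes were the 10 receptors, the called genes of 3 lists, the genes within 500 kb of Ccr9 and, for receptors reaching 20 CPM in a class, the 3 genes of highest Pearson r. Members and lists were chosen with earlier results of these data known. Shares came from cells thinned to 2000 UMIs. Promoters came from RefSeq (GRCm38.p6), for 8 of the 10 receptors. Alternatives were another filter, DESeq2 1.42.0, a replicate block, other clusterings, other cell filters and leaving out each library.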

Additional observations from a re-analysis of the deposited data

Results flagged for a closer look

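For 14 receptor and class pairs, the genotype difference was not the same as in iNKT1-like cells when tested as an interaction (edgeR, adjusted p under 0.05). In stage 0-like cells these were Ccr4 (1.63), Ccr9 (3.35), Cxcr6 (-1.87), Ccr2 (-3.04) and Ccr10 (-2.12), on the log2 scale. In cycling-like cells they were Cxcr6 (-1.07), Ccr2 (-1.33) and Ccr10 (-1.54). In iNKT2-like cells they were Cxcr3 (-1.0), Ccr8 (0.60), Cxcr6 (-0.84), Ccr2 (-1.13) and Ccr10 (-2.25), and in iNKT17-like cells Ccr10 (-2.66). The groups hold 2 libraries each, so no search for outlying samples was made.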

How the results depend on the processing

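Numbers of receptors called depended on the settings as follows. Without the low-count filter, 4 in place of 2 were called in stage 0-like, 6 in place of 3 in iNKT2-like, 4 in place of 0 in iNKT17-like, 4 in place of 2 in iNKT1-like, 3 in place of 0 in late iNKT1-like and 4 in place of 2 in other iNKT1-like cells, 5 in place of 2 over all cells, and, against iNKT1-like cells, 5 in place of 3 in cycling-like and 3 in place of 1 in iNKT17-like cells. DESeq2 called 4 in place of 2 in other iNKT1-like cells, 5 in place of 2 over all cells and 3 in place of 5 in stage 0-like against iNKT1-like cells, where it gave no adjusted p for the other 2. The finer clustering gave 4 in stage 0-like and 2 in late iNKT1-like cells, the coarser one 2 in late and 1 in other iNKT1-like cells, and no correction between libraries 3 in cycling-like cells. The other cell filter gave 1 in stage 0-like, 2 in late iNKT1-like and, against iNKT1-like cells, 5 in cycling-like cells. Removing the highest doublet scores gave 1 in stage 0-like cells. Leaving out cluster 12, chosen after seeing the data, gave 5 in cycling-like against iNKT1-like cells. Of the Ccr9 neighbours that are not receptors described here, 2 results were called, against 8 without the low-count filter and 1 with no correction between libraries.

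With 1 library left out at a time, the lone library of a genotype is assumed to vary like the others. The number called ran from 1 to 4 in stage 0-like, 3 to 6 in cycling-like, 1 to 4 in iNKT2-like, 0 to 2 in iNKT17-like, 0 to 3 in iNKT1-like, 0 to 1 in late iNKT1-like and 2 to 3 in other iNKT1-like cells, and from 2 to 3 over all cells. Against iNKT1-like cells it ran from 4 to 5, 3 to 6, 4 to 6 and 1 to 2 in stage 0-like, cycling-like, iNKT2-like and iNKT17-like cells, and for the Ccr9 neighbours from 2 to 3.

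The deviations of the libraries numbered 1 from their genotype means were not correlated (r = 0.0009). This value cannot show whether mice of the same number were handled together, since sex-linked transcripts and the mix of classes also enter it. With a replicate block, 4 receptors were called in stage 0-like, 1 in iNKT17-like and 2 in late iNKT1-like cells, and 4 results among the Ccr9 neighbours.

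Of the differences of single receptors that were called, or were past a log2 difference of 1 within a class or over all cells, none changed direction under an alternative, 46 values became called and 34 lost the call. The remaining differences, uncalled and mostly small, were less stable. Of their alternative values within a class or over all cells, 32 of 556 changed direction and 32 were called. Between classes, 38 of 305 changed direction and 30 were called. Of the uncalled differences between classes, 2 past 1 did change direction, both in stage 0-like against iNKT1-like cells and on few UMIs. Ccr8 went from -1.56 to as much as 4.94 and Cx3cr1 from 3.03 to -0.13. With 2 mice per genotype, each test rests on few samples.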
